A study of Homo sapiens with 9 samples.

Results

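Mevalonate was given back to SMS-KCNR cells whose own supply had been blocked with simvastatin, and the 3 arrays of cells that received both compounds (simvastatin at 5 µM, mevalonate at 2 mM) were compared with the 3 arrays of cells that received simvastatin at the same dose without it. The comparison took every annotated gene of the arrays and let the brightest probeset stand for a gene with several, which gave 14884 genes from 53617 probesets and set 3 against 3 of the 9 arrays of the study. The other 3 arrays came from cells given the solvent DMSO; they set the level to which a gene could return and also enter every p-value, since the spread was estimated over all 9 arrays. All groups were treated for 30 hours. SMS-KCNR is an established human neuroblastoma line, a tumour of the sympathetic nervous lineage, and all groups grew in medium with foetal bovine serum, which carries cholesterol of its own. The design text calls the samples of a group independent but does not say that they were separate cultures, so p-values measure how these samples of 1 cell line varied, and part of that spread may be technical.

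Simvastatin inhibits HMG-CoA reductase, the enzyme that makes mevalonate, and added mevalonate enters the pathway below that block. Cells turn mevalonate into farnesyl and geranylgeranyl diphosphate, lipids that are attached to Ras and Rab GTPases so that these proteins reach membranes, and further into squalene and cholesterol. When sterols in the endoplasmic reticulum run low, the SREBP transcription factors are released and switch on the genes of cholesterol and fatty acid synthesis. Amino acid shortage and other stresses act through a different factor, ATF4, and the state of actin acts on the transcription factor SRF.

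The labelled cell type was checked on its markers. Of 10 noradrenergic neuroblast markers 9 were measured, and their means over all arrays lay between 8.85 and 10.8 on the log2 scale, all above the median of all probesets (5.19). Markers of other cell types were not all dim: the Schwann cell markers S100B and SOX10 had means of 5.52 and 5.80, 6 of 6 markers of the mesenchymal state of neuroblastoma lay above that median (up to 10.9), as did 2 of 2 fibroblast markers (up to 8.20) and 1 of 4 blood or endothelial markers, and the part of such cells in the results was not tested. The mean of these 9 markers on each array ran from 9.94 to 9.97 with DMSO, from 9.52 to 9.54 with simvastatin and from 9.86 to 9.92 with simvastatin plus mevalonate. In bulk RNA, fewer cells of a kind and less RNA per cell cannot be told apart.

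Adding mevalonate to simvastatin changed 1642 of the 14884 genes (11.0%), 791 upwards (5.31%) and 851 downwards (5.72%), and 44 of them at least 2-fold (0.296%). Here and below, "rose", "fell" and "changed" mean an adjusted p under 0.05 in limma with Benjamini-Hochberg adjustment over all 14884 genes, and values, differences and their standard errors are on the log2 scale with 3 arrays a group. The sizes were small, with a median absolute change of 0.335 among the genes that changed. Between simvastatin plus mevalonate and DMSO 11 genes differed at an adjusted p under 0.05 (0.0739%), although 1635 (11.0%) had an unadjusted p under 0.05. Between simvastatin and DMSO 1988 genes (13.4%) differed at an adjusted p under 0.05. The 3 comparisons share arrays in pairs, so their counts are not independent of each other.

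Whether a gene came back in full, in part or not at all was read in 3 ways. By the calls, a gene that changed with mevalonate and still differed from DMSO on the side of simvastatin formed 1 class (7 genes, 0.0470%; 6 of them moved towards DMSO, a response in part, and 1 moved away), a gene that ended on the far side of DMSO went beyond it (4 genes, 0.0269%), and 1631 of the 1642 genes (99.3%) changed with no remaining difference that passed the test. Of the 1988 genes that simvastatin had changed against DMSO, 697 (35.1%, and 4.68% of all genes) did not pass the test with mevalonate and are termed uncalled. They did not all stay put: 426 of the 697 regained at least 50% of the simvastatin difference, 271 regained less, the median was 57.2%, and in 476 the mevalonate and simvastatin arrays did not overlap. A missed threshold shows neither that a gene failed to respond nor that it was back at its DMSO level. The remaining difference had a median absolute size of 0.0846 and a 95% interval with a median width of 0.256, and in 498 of the 1642 genes that interval, which is not adjusted for the number of genes, left out 0. By the arrays, the 3 mevalonate arrays fell short of every DMSO array on the side of simvastatin in 335 of the 1642 genes (20.4%), overlapped the DMSO arrays in 987 (60.1%) and lay past all of them in 320 (19.5%). In 351 of the 1642 genes the simvastatin difference from DMSO, whose sign sets these sides, was not called. By size, the 458 genes that simvastatin had moved by at least 0.5 regained a median of 84.5% of that difference (quartiles 68.2 and 102), and 30 of them regained under 50%, as did 287 of all 1988. Both terms of that percentage use the simvastatin arrays. The 11 calls against DMSO rest on the full set of arrays: 0 were left without any 1 DMSO array or without mevalonate array 1, 2 without mevalonate array 2 and 3 without mevalonate array 3. Without mevalonate array 1 the genes that rose numbered 516, and without DMSO array 2 or 3 the uncalled genes numbered 448 and 407.

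**Figure D1:**
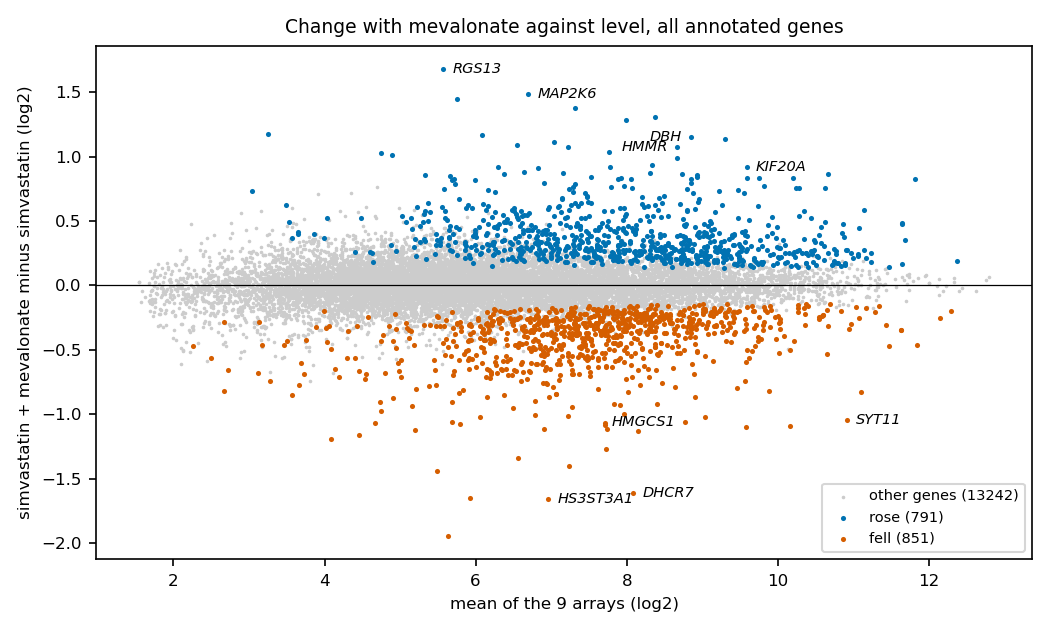
Each point is 1 of the 14884 genes. The horizontal axis gives the mean of the 9 arrays (log2) and the vertical axis the difference between simvastatin plus mevalonate and simvastatin (log2, positive where mevalonate raised the gene). Blue points are the 791 genes that rose and orange points the 851 that fell, and 9 genes described in the text are named.

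Several genes of the mevalonate pathway itself fell with added mevalonate, and 3 of these stayed above every DMSO array. Of the enzymes from acetyl-CoA to farnesyl and geranylgeranyl diphosphate 8 of 10 were measured, and 4 fell (50%, beside 11.0% of all genes). The median difference was -0.31 over the 8, beside 0.0038 over all genes. HMGCS1, which condenses acetyl-CoA and acetoacetyl-CoA into HMG-CoA just above the blocked step, read 8.01, 7.99 and 8.04 with DMSO, 9.71, 9.63 and 9.68 with simvastatin and 8.69, 8.58 and 8.58 with simvastatin plus mevalonate. The groups did not overlap, and the mevalonate arrays lay in the middle. HMGCS1 fell by 1.06 ± 0.047 (adjusted p = 1.31e-05) and remained 0.60 above DMSO (adjusted p = 0.0129), a return of 63.7% of the simvastatin difference. ACAT2, the cytosolic thiolase that starts the pathway, went from 10.21, 10.15 and 10.23 to 9.32, 9.50 and 9.37, against 8.81, 8.81 and 8.77 with DMSO, and it too remained 0.60 above DMSO (adjusted p = 0.0176). Both remaining differences were lost without any 1 DMSO array or without mevalonate array 1, and that of ACAT2 also without mevalonate array 3.

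The next members came closer. MVD, which makes isopentenyl diphosphate from mevalonate by way of its diphosphate, fell by 0.76 ± 0.050 (adjusted p = 6.07e-05), and its 3 mevalonate arrays (6.68, 6.73 and 6.62) lay just above the DMSO arrays (6.55, 6.53 and 6.57), a return of 85.5%. FDPS, farnesyl diphosphate synthase, fell by 0.36 ± 0.083 (adjusted p = 0.0274), and this call was lost without simvastatin array 1 or mevalonate array 1 or 3 (adjusted p from 0.0567 to 0.0828). The call was also lost with only the compared groups in the fit (adjusted p = 0.0713) and with the replicate block (adjusted p = 0.0717). IDI1, which isomerises isopentenyl diphosphate, just missed the threshold (difference -0.27 ± 0.073, adjusted p = 0.0532) and passed it without simvastatin array 1 (adjusted p = 0.00562), with a filter on dim probesets (adjusted p = 0.0274) and with trend and robust eBayes (adjusted p = 0.0192), with values of 7.62, 7.65 and 7.61 for DMSO, 7.91, 8.11 and 8.24 for simvastatin and 7.80, 7.83 and 7.83 for the combination. Across the 8 enzymes the array means ran from 6.76 to 6.78 with DMSO, from 7.35 to 7.45 with simvastatin and from 6.97 to 7.04 with both, a return of 63.1% of the mean difference with no overlap between groups.

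Most enzymes from squalene to cholesterol that changed also stopped short. Of 8 measured 5 fell and 1 rose (75%, beside 11.0% of all genes). Of these 6, 4 stayed short of every DMSO array (66.7%, beside 20.4% of all genes that changed). DHCR7, which completes cholesterol from its last precursor, fell the most, by 1.61 ± 0.076 (adjusted p = 1.43e-05), from 9.33, 9.18 and 9.38 to 7.68, 7.68 and 7.68, still above the DMSO arrays (7.43, 7.17 and 7.22). Its mevalonate values are identical to 4 decimals, as are 3 values of a group in 1.36 to 2.22% of all genes, so its spread is understated. MSMO1, a sterol C4-methyl oxidase, read 9.42, 9.36 and 9.34 with DMSO, 10.12, 10.15 and 10.28 with simvastatin and 9.87, 9.87 and 9.97 with both, so the mevalonate arrays lay nearer to simvastatin than to DMSO. It fell by 0.28 ± 0.055 (adjusted p = 0.0127; 0.051 without mevalonate array 1) and remained 0.53 above DMSO (adjusted p = 0.0183, lost without any 1 DMSO or mevalonate array), a return of 34.4%. SQLE, squalene epoxidase, returned 56.9% (10.29, 10.28 and 10.26 to 9.998, 9.97 and 9.98, DMSO 9.85, 9.69 and 9.75). EBP and NSDHL, which act later in sterol synthesis, overlapped DMSO: EBP fell by 0.46 ± 0.067 to 7.59, 7.86 and 7.65 beside 7.78, 7.79 and 7.82, and NSDHL by 0.36 ± 0.063 to 7.78, 7.89 and 7.85 beside 7.68, 7.80 and 7.91. LBR, a nuclear envelope protein with sterol reductase activity, was the member that rose, by 0.21 ± 0.046 (adjusted p = 0.0205), a call lost without simvastatin array 2 or 3 or mevalonate array 1 or 3 (adjusted p from 0.058 to 0.0746).

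The regulators of the pathway and sterol transfer genes were not alike by their calls. Of 20 listed 8 were measured, and 3 fell and 0 rose (37.5%, beside 11.0% of all genes). Over the 8 the mean returned 94.0% of the simvastatin difference, and the array means with mevalonate (7.73 to 7.76) overlapped those with DMSO (7.68 to 7.76). SREBF2, the gene of the SREBP that drives cholesterol synthesis, read 8.70, 8.56 and 8.74 with DMSO, 9.24, 9.35 and 9.36 with simvastatin and 8.78, 8.88 and 8.75 with both, with every mevalonate array just above every DMSO array and well below every simvastatin array. It fell by 0.52 ± 0.064 (adjusted p = 0.00127; remaining difference 0.13, 95% interval -0.011 to 0.28). STARD4, which carries sterol between membranes, and INSIG2, which holds SREBPs in the endoplasmic reticulum, fell by 0.43 ± 0.058 and 0.34 ± 0.060, and both overlapped DMSO. INSIG1, the other retention protein and an SREBP target, was not called: its arrays read 7.86, 7.78 and 7.81 with DMSO, 8.45, 8.25 and 8.38 with simvastatin and 8.23, 8.24 and 8.15 with both. The last 2 groups nearly touched but did not overlap, with a difference of -0.16 ± 0.058 (95% interval -0.29 to -0.023, adjusted p = 0.144) and a return of 28.5%, and all 3 mevalonate arrays were above every DMSO array.

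The sequence below is part of the SREBF2 promoter and is shown because SREBPs bind the sterol regulatory element. It covers chr22:41832927-41833025 on the plus strand (RefSeq, GRCh38.p14), from 178 to 80 bases before the transcription start, and the capitals mark the letters searched for this element, TCACNCCAC, where N is any base.
SREBF2: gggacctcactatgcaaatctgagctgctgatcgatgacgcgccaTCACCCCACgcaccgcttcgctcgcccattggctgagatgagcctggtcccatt
Within 250 bases before the start, on either strand, these letters were found in 2 of the 38 genes of the cholesterol and fatty acid lists whose promoter was searched (5.26%). These were SREBF2 and ACSL1, a fatty acid activating enzyme, which fell by 0.30 ± 0.049. Among all measured genes whose promoter was searched, the letters were found in 122 of 10749 (1.13%). The promoters printed here were chosen after the changes were seen, a match is a description of letters and not a bound site, and no match says only that these letters were absent from the window. Here and below, the lists were drawn up by function, some of them with targets of the factor. A higher share of matches in such a list is therefore not a result of these arrays.

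Fatty acid genes returned 86.5% of their mean simvastatin difference, beside 63.7% for the sterol enzymes, and the difference between these returns was not tested. The sterol mean is over members that went both ways. It includes LBR, which rose, and HSD17B7, with group means from 5.25 to 5.70, which was not called (difference 0.36 ± 0.19, adjusted p = 0.299). Among genes called in both comparisons the median return was 90.9% for fatty acid genes and 72.4% for sterol enzymes. Of 20 measured 12 fell and 0 rose (60%, beside 11.0% of all genes), with a median of -0.30. Of the 12, 5 stayed short of DMSO, 5 overlapped it and 2 were past it (41.7%, 41.7% and 16.7%, beside 20.4%, 60.1% and 19.5% of all genes that changed). The array means ran from 7.72 to 7.79 with mevalonate beside 7.70 to 7.73 with DMSO and 8.07 to 8.08 with simvastatin. ACSS2, which activates acetate to acetyl-CoA, read 5.97, 5.94 and 6.25 with DMSO, 7.53, 7.47 and 7.44 with simvastatin and 6.25, 6.25 and 5.91 with both. The mevalonate and DMSO arrays covered the same range, the simvastatin arrays stood more than 1 unit above both, and ACSS2 fell by 1.34 ± 0.11 (adjusted p = 0.000175).

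FASN, fatty acid synthase, returned 70.5%: its mevalonate arrays (9.41, 9.53 and 9.44) all lay above the DMSO arrays (9.13, 9.22 and 9.29) and below the simvastatin arrays (10.05, 10.02 and 10.09). SCD, which makes monounsaturated fatty acids, showed the same order (11.55, 11.56 and 11.56 beside 11.38, 11.45 and 11.41 and 11.88, 11.87 and 11.95; return 70.6%), and FADS1, a desaturase of polyunsaturated fatty acids, returned 56%. LPIN1, a phosphatidate phosphatase, fell by 0.56 ± 0.062 to 7.51, 7.51 and 7.31, below every DMSO array (7.61, 7.59 and 7.65).

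Protein prenylation, ubiquinone and dolichol synthesis showed no called gene. Of 26 listed genes 10 were measured, 0 changed in limma and 3 had an unadjusted p under 0.05; over all genes 11.0% changed and 23.7% had such a p, so in a list this short both counts are near the overall shares. The array means of the groups overlapped (8.17 to 8.20 with mevalonate, 8.14 to 8.19 with simvastatin, 8.17 to 8.21 with DMSO). The nearest were COQ8A, a ubiquinone synthesis kinase (difference -0.32 ± 0.085, adjusted p = 0.0501), and COQ9, a lipid-binding ubiquinone factor (0.16 ± 0.044, adjusted p = 0.0524). COQ8A passed with a filter on dim probesets (adjusted p = 0.0259) and with trend and robust eBayes (adjusted p = 0.023), and COQ9 with a filter on dim probesets (adjusted p = 0.0239) and with trend and robust eBayes (adjusted p = 0.0096); each of these settings gave 3 called genes. Leaving out simvastatin array 1, simvastatin array 2 or mevalonate array 3 gave 1 called gene each.

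**Figure D2:**
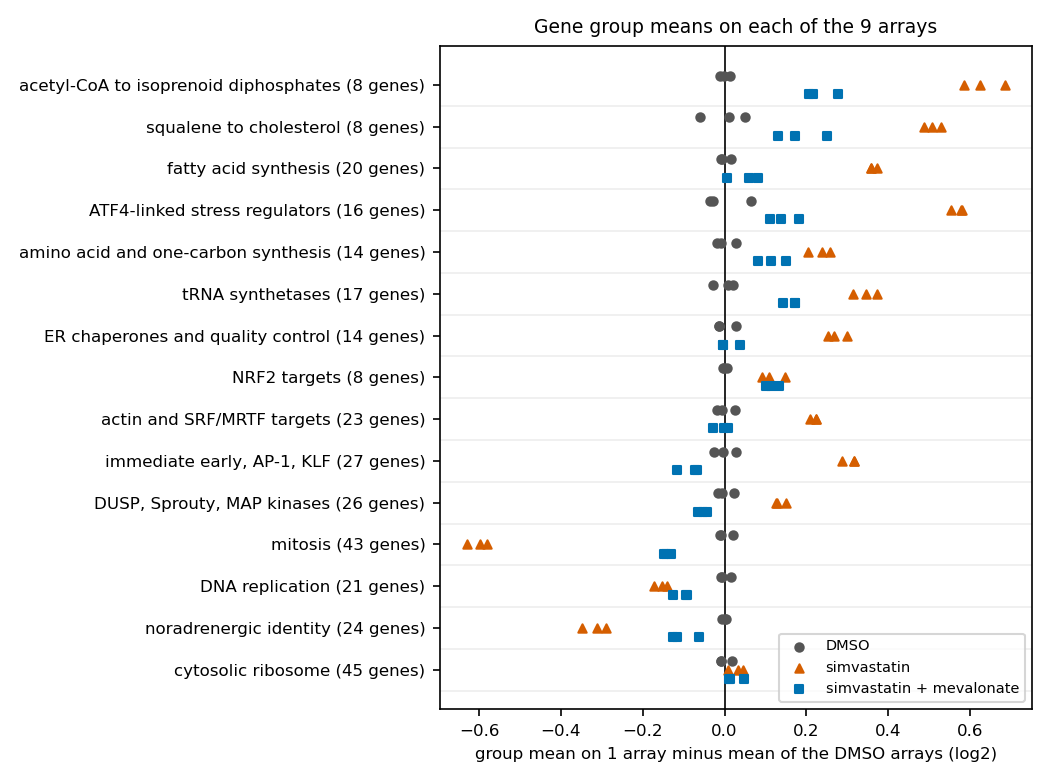
Each row is a gene group, and each point the mean of its measured genes on 1 array minus the mean of the 3 DMSO arrays (log2). Grey circles are DMSO, orange triangles simvastatin and blue squares simvastatin plus mevalonate. The blue squares lie between the other groups for both cholesterol rows, tRNA synthetases and mitosis, at the grey circles for ER chaperones and actin genes, to the left of them for the immediate early and DUSP rows, and among the orange triangles for NRF2 targets.

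Many Ras and Rab GTPases are anchored to membranes by lipids made from mevalonate, but the list used here was not limited to proteins anchored in this way. Among 13 Ras, Rap and Arf-like GTPases measured, a short list, 3 fell and 0 rose (23.1%, beside 11.0% of all genes). RRAS fell by 0.47 ± 0.063, GEM by 0.55 ± 0.083 and RALA by 0.29 ± 0.059. RRAS went from 6.74, 6.85 and 6.77 to 6.38, 6.21 and 6.38, beside 6.17, 6.13 and 6.04 with DMSO. Of 56 Rab GTPases listed 0 were among the annotated genes, so they are not analysed here.

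Actin and focal adhesion genes, many of them targets of SRF and its partners the MRTFs, came back to the DMSO range by their means. Of 23 measured 9 fell and 2 rose (47.8%, beside 11.0% of all genes). Of these 11, 1 stayed short of DMSO, 7 overlapped it and 3 were past it. These shares were 9.09%, 63.6% and 27.3%, beside 20.4%, 60.1% and 19.5% of all genes that changed. The array means were 7.39 to 7.43 with mevalonate, 7.40 to 7.44 with DMSO and 7.63 to 7.64 with simvastatin. ZYX, zyxin of focal adhesions, read 6.96, 6.80 and 6.83 with DMSO, 8.06, 7.85 and 7.95 with simvastatin and 6.998, 7.12 and 6.91 with both, so the mevalonate arrays rejoined the DMSO range or lay just above it. It fell by 0.94 ± 0.076 (adjusted p = 0.000164). VCL, vinculin, fell by 0.59 ± 0.057 (9.55, 9.50 and 9.58 to 8.88, 9.08 and 8.90, DMSO 8.91, 8.95 and 8.92), and the LIM-domain genes FHL2 and FHL3 by 0.58 ± 0.066 and 0.67 ± 0.050.

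SRF itself read 8.74, 8.75 and 8.75 with DMSO, 9.30, 9.29 and 9.29 with simvastatin and 8.54, 8.65 and 8.63 with both. Every mevalonate array lay below every DMSO array, and SRF fell by 0.68 ± 0.041 (adjusted p = 3.90e-05; remaining difference -0.14, 95% interval -0.23 to -0.044). MRTFB, a partner of SRF, moved the other way, from 8.73, 8.84 and 8.76 to 9.19, 9.21 and 9.19 beside 9.06, 9.10 and 9.06 with DMSO, a rise of 0.42 ± 0.042 (adjusted p = 0.000485). The end of the SRF promoter is shown because it holds the CArG box, the element that SRF binds. It covers chr6:43171194-43171268 on the plus strand (RefSeq, GRCh38.p14), the last 75 bases before the start, with both boxes in capitals.
SRF: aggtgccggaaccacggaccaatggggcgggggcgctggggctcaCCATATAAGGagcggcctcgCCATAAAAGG
The CArG box was found in 4 of 22 actin and SRF genes with a promoter (18.2%; SRF, FHL2, CNN2 and TPM4) and in 176 of the 10749 measured genes (1.64%). SRF, FHL2, CNN2 (by 0.30 ± 0.079, adjusted p = 0.0457) and TPM4 (by 0.22 ± 0.036, adjusted p = 0.00489) all fell, and the call of CNN2 was lost without any 1 DMSO array, any 1 simvastatin array or mevalonate array 2 or 3 (adjusted p from 0.0599 to 0.124). With the mean of its probesets CNN2 differed by -0.12 (adjusted p = 0.274), and after quantile normalization it also missed the threshold (adjusted p = 0.0536).

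Immediate early, AP-1 and KLF transcription factors ended at or below their DMSO values. Of 27 measured 14 fell and 0 rose (51.9%, beside 11.0% of all genes). Of the 14, 5 had all 3 mevalonate arrays below all DMSO arrays, and 0 stayed short of DMSO. The 5 are 35.7%, beside 19.5% past DMSO among all genes that changed. The array means were 6.75 to 6.80 with mevalonate, 6.84 to 6.90 with DMSO and 7.16 to 7.19 with simvastatin, with no overlap. JUN, an AP-1 subunit, read 6.61, 6.64 and 6.67 with DMSO, 7.38, 7.32 and 7.20 with simvastatin and 6.45, 6.52 and 6.24 with both. Its lowest value of the 9 was a mevalonate array, and it fell by 0.90 ± 0.076 (adjusted p = 0.000197), with a remaining difference of -0.23 (95% interval -0.41 to -0.061).

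CREB5, which pairs with JUN, fell by 1.40 ± 0.098, from 8.19, 8.13 and 7.82 to 6.74, 6.63 and 6.57, below the DMSO arrays at 6.93, 7.07 and 6.998 (remaining difference -0.36, adjusted p = 0.252). IER3, an early response gene of survival signalling, fell by 1.08 ± 0.072 to 7.31, 7.30 and 7.16, below 7.56, 7.52 and 7.56 with DMSO. KLF2, a Kruppel-like factor of statin-treated endothelium, read 6.29, 6.62 and 6.14 with DMSO, 6.77, 7.01 and 6.87 with simvastatin and 6.23, 6.10 and 6.24 with both; the mevalonate arrays overlapped DMSO, and KLF2 fell by 0.70 ± 0.12 (adjusted p = 0.00653). KLF11, a related repressor, fell by 0.93 ± 0.095 and lay past DMSO (7.57, 7.60 and 7.36 beside 7.84, 7.76 and 7.72). KLF12 was lowered by simvastatin and was not called with mevalonate (8.32, 8.10 and 8.28 to 8.29, 8.13 and 8.27, DMSO 8.50, 8.61 and 8.61; difference -0.0070 ± 0.072, adjusted p = 0.969), and its simvastatin change was lost without DMSO array 2 or 3 (adjusted p from 0.0585 to 0.0587).

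Some phosphatases that switch off MAP kinases also ended below DMSO. Of 26 DUSP, Sprouty and MAP kinase genes measured 8 fell and 1 rose (34.6%, beside 11.0% of all genes). Of these, 3 (DUSP6, DUSP10 and DUSP16) lay past DMSO (33.3%, beside 19.5% of all genes that changed), a small count. DUSP16 read 7.64, 7.49 and 7.61 with DMSO, 8.13, 8.06 and 7.94 with simvastatin and 7.25, 7.27 and 7.19 with both. The 3 groups were apart, with the mevalonate arrays lowest, and DUSP16 fell by 0.81 ± 0.062 (adjusted p = 0.000123) to -0.34 relative to DMSO (95% interval -0.48 to -0.20, adjusted p = 0.0927). DUSP6, which removes phosphate from ERK, was not called between simvastatin and DMSO (difference 0.085, adjusted p = 0.483), so its place past DMSO rests on the sign of that difference. Its mevalonate arrays (7.78, 7.89 and 7.99) lay below every DMSO array (8.23, 8.16 and 8.27) and every simvastatin array (8.37, 8.32 and 8.22).

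DUSP4 and DUSP5, nuclear phosphatases of ERK, returned into the DMSO range, with falls of 0.59 ± 0.062 and 1.06 ± 0.071. SPRY4, a Sprouty inhibitor of receptor signalling, fell by 0.37 ± 0.039, from 8.71, 8.73 and 8.74 to 8.36, 8.39 and 8.31 beside 8.37, 8.40 and 8.36. MAP2K6, a kinase that activates p38, rose by 1.48 ± 0.10 (adjusted p = 6.64e-05), from 5.52, 5.71 and 5.43 to 7.14, 7.12 and 6.85, still below every DMSO array (7.41, 7.48 and 7.61).

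**Figure D3:**
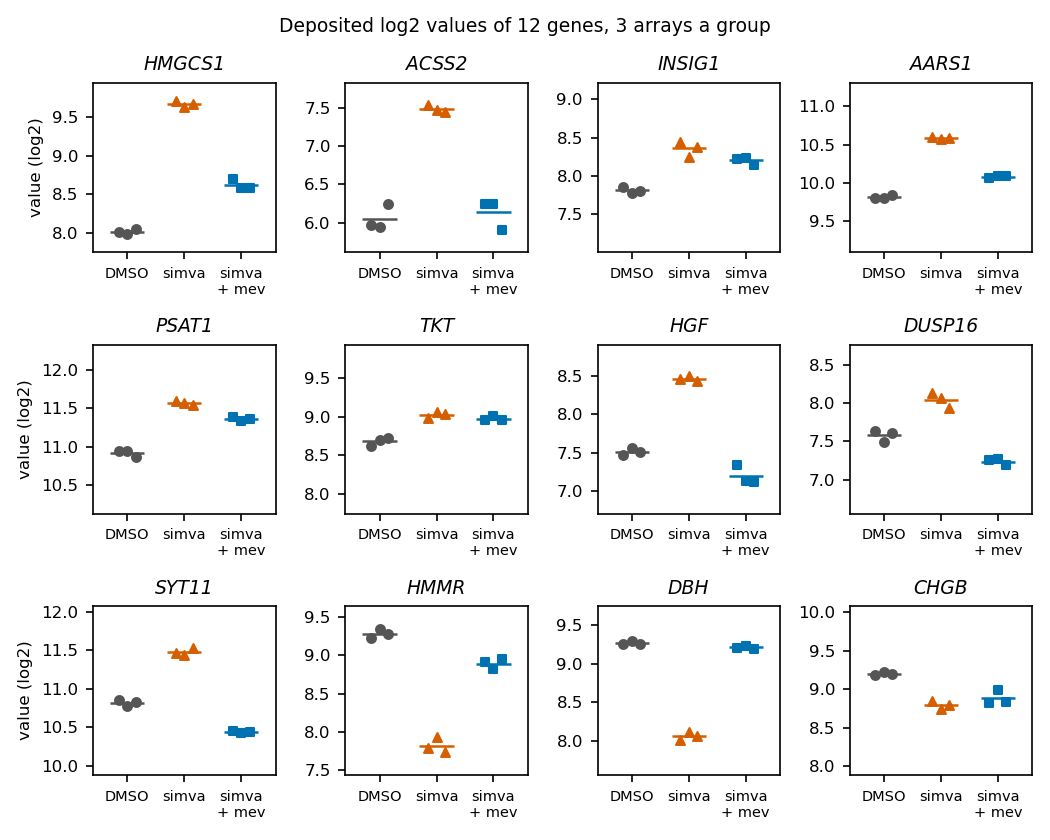
Deposited log2 values of 12 genes, 1 point per array and a line at each group's mean; every panel spans the same number of log2 units. HMGCS1, AARS1, PSAT1 and HMMR with simvastatin plus mevalonate lie between DMSO and simvastatin, ACSS2 and DBH lie near DMSO, HGF, DUSP16 and SYT11 lie beyond DMSO, and INSIG1, TKT and CHGB lie near simvastatin.

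Genes of amino acid shortage and protein synthesis came back in part by their means, with returns of 74.8% for regulators and targets of ATF4, 50.4% for amino acid synthesis and 52.7% for tRNA synthetases. Of 16 regulators and targets linked to ATF4, 9 fell and 1 rose (62.5%, beside 11.0% of all genes). Of the 10, 4 stayed short of DMSO, 5 overlapped it and 1 was past it (40%, 50% and 10%, beside 20.4%, 60.1% and 19.5% of all genes that changed). DDIT4, an inhibitor of the growth kinase mTORC1, read 6.33, 6.32 and 6.41 with DMSO, 7.60, 7.49 and 7.31 with simvastatin and 6.84, 6.84 and 6.93 with both, with the mevalonate arrays apart from both other groups. It fell by 0.60 ± 0.074 (adjusted p = 0.00139) and returned 53.4% (remaining difference 0.52, 95% interval 0.35 to 0.69). TRIB3, a pseudokinase that restrains ATF4, returned in full by its mean (7.41, 7.79 and 7.73 to 6.70, 6.40 and 6.49, DMSO 6.65, 6.52 and 6.44), a fall of 1.11 ± 0.12 (adjusted p = 0.000562).

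ATF5, a related transcription factor, fell by 0.65 ± 0.065 (return 79.8%), STC2, a secreted glycoprotein, by 0.55 ± 0.065 (return 63.1%), and SESN2, a leucine sensor, by 0.95 ± 0.14 (return 78.8%). GDF15, a secreted stress signal, was not called: its simvastatin arrays (6.05, 6.20 and 6.02) and mevalonate arrays (5.96, 6.25 and 6.004) overlapped, and all 6 lay above every DMSO array, at 5.81, 5.66 and 5.70 (difference -0.022 ± 0.086, adjusted p = 0.908). Its own change with simvastatin (adjusted p = 0.0239) was lost without DMSO array 2 or 3 or simvastatin array 2 (adjusted p from 0.075 to 0.0811). VLDLR, a lipoprotein receptor, was the member that rose, by 0.19 ± 0.047 (adjusted p = 0.0392), a call lost without DMSO array 1 or 3, any 1 simvastatin array or mevalonate array 1 or 2 (adjusted p from 0.0502 to 0.13). This call was also lost with quantile normalization (adjusted p = 0.052), only the compared groups in the fit (adjusted p = 0.079) and the replicate block (adjusted p = 0.0931).

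Of 14 enzymes of amino acid and one-carbon synthesis 5 fell and 1 rose (42.9%, beside 11.0% of all genes). Of these 6, 4 stayed short of DMSO (66.7%, beside 20.4% of all genes that changed). Without mevalonate array 2, 3 genes changed. ASNS, asparagine synthetase, read 7.73, 7.58 and 7.59 with DMSO, 8.84, 8.86 and 8.78 with simvastatin and 8.17, 8.27 and 8.16 with both. The mevalonate arrays were near the middle, with a fall of 0.63 ± 0.056 (adjusted p = 0.000257) and 0.57 left above DMSO (adjusted p = 0.0183, lost without any 1 DMSO or mevalonate array). PSAT1, an enzyme of serine synthesis, read 10.94, 10.95 and 10.87 with DMSO, 11.60, 11.56 and 11.54 with simvastatin and 11.39, 11.33 and 11.37 with both, a return of 31.7%. Its fall of 0.21 ± 0.041 (adjusted p = 0.0149) was lost without mevalonate array 2 (adjusted p = 0.0525), and 0.44 remained above DMSO (adjusted p = 0.0176, lost in the same way as for ASNS).

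PHGDH, the enzyme before PSAT1 in serine synthesis, was not called: the mevalonate arrays (9.01, 9.04 and 8.98) overlapped the simvastatin arrays (9.04, 8.91 and 8.95), and both lay above DMSO (8.81, 8.80 and 8.78), with a difference of 0.046 ± 0.045 (adjusted p = 0.602). Its change with simvastatin (adjusted p = 0.0446) was lost without any 1 DMSO array, simvastatin array 1 or 3 or any 1 mevalonate array (adjusted p from 0.0608 to 0.123). PYCR1, of proline synthesis, also missed the threshold (-0.20 ± 0.059, adjusted p = 0.0648) and passed it without DMSO array 3 (adjusted p = 0.03), with a filter on dim probesets (adjusted p = 0.0328), with only the compared groups in the fit (adjusted p = 0.0484) and with trend and robust eBayes (adjusted p = 0.0279). MTHFD1L, a mitochondrial folate enzyme, returned 56.2% (9.24, 9.20 and 9.14 to 8.82, 8.82 and 8.82, DMSO 8.53, 8.50 and 8.57), with 3 identical values that understate its spread as for DHCR7. SHMT2, the mitochondrial serine hydroxymethyltransferase, fell by 0.25 ± 0.043, and SHMT1, its cytosolic relative, rose by 0.25 ± 0.063 (adjusted p = 0.0402), a call lost without DMSO array 3, any 1 simvastatin array or any 1 mevalonate array (adjusted p from 0.0615 to 0.119).

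Part of the ASNS promoter is shown because it holds the amino acid response element that ATF4 binds. It covers chr7:97872424-97872521 on the minus strand (RefSeq, GRCh38.p14), from 113 to 16 bases before the start, and the capitals mark the letters searched, TGATGNAA, on either strand.
ASNS: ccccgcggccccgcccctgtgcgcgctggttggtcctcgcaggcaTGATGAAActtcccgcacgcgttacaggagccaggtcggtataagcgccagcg
These letters were found in 8 of the 38 genes with a promoter in the ATF4, amino acid and tRNA synthetase lists (21.1%) and in 304 of the 10749 measured genes (2.83%). Among the 8, the genes that fell were ASNS, ATF3 (by 0.56 ± 0.11, adjusted p = 0.0116), AARS1, MTHFD1L and GARS1.

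Cytosolic tRNA synthetases, which load amino acids onto tRNAs, stopped short wherever they fell. Of 17 measured 8 fell and 0 rose (47.1%, beside 11.0% of all genes). In 8 of the 8 every mevalonate array lay above every DMSO array, beside 20.4% short of DMSO among all genes that changed. AARS1, for alanine, read 9.80, 9.81 and 9.84 with DMSO, 10.60, 10.57 and 10.59 with simvastatin and 10.07, 10.09 and 10.09 with both. The arrays within each group lay within 0.1 of each other and the groups were well apart; AARS1 fell by 0.50 ± 0.035 (adjusted p = 7.96e-05) and remained 0.27 above DMSO (95% interval 0.19 to 0.35, adjusted p = 0.0546).

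The other synthetases that fell were SARS1 (return 69.4%), WARS1 (74%), EPRS1 (59.9%), MARS1 (53.4%), CARS1 (49%), GARS1 (41.7%) and NARS1 (38.4%). A further 5 that simvastatin had raised were not called. IARS1, for isoleucine, was lower in every mevalonate array than in every simvastatin array: 10.94, 10.94 and 10.995 with simvastatin and 10.84, 10.84 and 10.84 with both, beside 10.62, 10.62 and 10.71 with DMSO (difference -0.12 ± 0.042, adjusted p = 0.121; return 39.4%), and it passed with trend and robust eBayes (adjusted p = 0.0138). LARS1, for leucine, differed by -0.047 ± 0.043 (adjusted p = 0.57). The simvastatin change of LARS1 was lost without DMSO array 2 or 3 or simvastatin array 1 or 3 (adjusted p from 0.0528 to 0.0869). Over the 17 genes the array means were 9.45 to 9.48 with mevalonate, between 9.28 to 9.33 with DMSO and 9.62 to 9.68 with simvastatin, a return of 52.7%. The count of 8 went to 5 without simvastatin array 1, without mevalonate array 2 or without mevalonate array 3. The call of CARS1 (adjusted p = 0.0206) was lost without simvastatin array 1 or mevalonate array 2 or 3 (adjusted p from 0.0505 to 0.0771), that of NARS1 (adjusted p = 0.0444) without any 1 DMSO array, simvastatin array 1 or 3 or any 1 mevalonate array (adjusted p from 0.0597 to 0.118), and that of MARS1 (adjusted p = 0.0477) without any 1 of the 9 arrays (adjusted p from 0.0579 to 0.142).

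Genes of endoplasmic reticulum chaperones and quality control mostly returned to the DMSO range where they changed, and the difference from the synthetases was not tested. Of 14 measured 9 fell and 0 rose (64.3% changed, beside 11.0% of all genes), and 8 of the 9 (88.9%) overlapped DMSO, beside 60.1% of all genes that changed. XBP1, which drives chaperone genes under unfolded protein stress, read 8.15, 8.08 and 8.22 with DMSO, 8.97, 9.06 and 8.96 with simvastatin and 8.24, 8.35 and 8.14 with both, with 2 of the 3 mevalonate arrays above every DMSO array. It fell by 0.75 ± 0.065 (adjusted p = 0.000206; return 88.9%). ATF6, a membrane-bound sensor of that stress, fell by 0.51 ± 0.038, from 9.998, 10.01 and 9.98 to 9.45, 9.48 and 9.53 beside 9.47, 9.48 and 9.46, and ERN1, another sensor, by 0.42 ± 0.063 (return 96.5%). HYOU1, a chaperone, was the member that stayed short (9.43, 9.43 and 9.34 beside 9.25, 9.26 and 9.25; return 58.3%), and its call was lost with the mean of its probesets (adjusted p = 0.36), as was that of WARS1 above (adjusted p = 0.449).

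Targets of NRF2, the factor of oxidative stress, showed no called change. Of 8 measured 0 changed in limma and 1 had an unadjusted p under 0.05, beside 11.0% and 23.7% of all genes, so a count of 0 among 8 is near the overall share. Of the 8, 3 had been raised by simvastatin. TKT, transketolase of the pentose phosphate pathway, read 8.62, 8.69 and 8.73 with DMSO, 8.99, 9.06 and 9.04 with simvastatin and 8.96, 9.01 and 8.96 with both. The last 2 groups overlapped, all 6 of those arrays were above every DMSO array, and the difference with mevalonate was -0.054 ± 0.044 (95% interval -0.15 to 0.046, adjusted p = 0.513). TXNRD1, thioredoxin reductase, differed by -0.094 ± 0.048 (9.02, 8.94 and 8.90 to 8.84, 8.84 and 8.90, DMSO 8.69, 8.65 and 8.59), and GSR, glutathione reductase, by less than 0.01 (9.75, 9.66 and 9.65 with simvastatin, 9.72, 9.67 and 9.66 with both, 9.46, 9.54 and 9.54 with DMSO). The change of GSR with simvastatin (adjusted p = 0.0416) was lost without any 1 of the 9 arrays (adjusted p from 0.0606 to 0.133). For GSR and TKT the remaining differences from DMSO were 0.17 and 0.29 (adjusted p = 0.246 and 0.0587). TALDO1, transaldolase, was called (the only member of the list) after quantile normalization and after a filter on dim probesets.

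Most mitotic genes rose, and most of these stayed below DMSO. Of 43 kinetochore, spindle and mitotic exit genes measured 38 rose and 0 fell, beside 5.31% of all genes that rose, with a median of 0.39. In 31 of the 38 (81.6%) every mevalonate array lay below every DMSO array, and in 7 they overlapped, beside 20.4% short of DMSO among all genes that changed. The array means were 9.14 to 9.16 with mevalonate, 9.28 to 9.31 with DMSO and 8.66 to 8.71 with simvastatin, a return of 76.5%.

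HMMR, a spindle and hyaluronan-binding protein, read 9.23, 9.35 and 9.27 with DMSO, 7.79, 7.93 and 7.74 with simvastatin and 8.91, 8.82 and 8.95 with both. All groups were apart, HMMR rose by 1.07 ± 0.064 (adjusted p = 3.42e-05) and -0.39 remained relative to DMSO (95% interval -0.54 to -0.24, adjusted p = 0.0744). KIF20A, a kinesin of cytokinesis, rose by 0.92 ± 0.052 (8.79, 8.95 and 8.95 to 9.81, 9.83 and 9.81, DMSO 10.05, 10.04 and 10.04), and KIF14, another, by 0.73 ± 0.039 (8.64, 8.68 and 8.60 to 9.39, 9.36 and 9.36, DMSO 9.65, 9.61 and 9.65). These 3 kept the same order in every array, with DMSO highest.

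BUB1, a kinase of the spindle checkpoint, rose by 0.83 ± 0.039 (return 83.4%), PLK1, a mitotic kinase, by 0.75 ± 0.038 (return 90%), and CCNB2, a B-type cyclin, by 0.57 ± 0.037 (return 70.6%). TOP2A, topoisomerase II, went from 11.26, 11.27 and 11.25 to 11.77, 11.71 and 11.75 beside 11.92, 11.92 and 11.89, and MKI67, the proliferation marker Ki-67, from 11.34, 11.43 and 11.43 to 11.75, 11.75 and 11.76 beside 11.86, 11.90 and 11.90. In both genes the 3 groups were apart in the same order.

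Among the 7 members that overlapped DMSO, CCNB1, cyclin B1, read 9.12, 9.20 and 9.11 with DMSO, 8.31, 8.34 and 8.25 with simvastatin and 9.10, 9.04 and 9.14 with both. CENPA, the centromeric histone, returned 94.1%, and CDC20, an activator of the anaphase-promoting complex, returned 103%. PTTG1, securin, was the furthest, at 118% (6.87, 6.68 and 6.56 beside 6.50, 6.54 and 6.68, remaining difference 0.13, 95% interval -0.070 to 0.34). The 4 genes that simvastatin had lowered and that missed the threshold were CDC25C, MAD2L1, PRC1 and FOXM1, with differences of 0.13, 0.17, 0.17 and 0.17 (adjusted p = 0.376, 0.0668, 0.0602 and 0.0909). MAD2L1 passed without mevalonate array 2 (adjusted p = 0.0449), with a filter on dim probesets (adjusted p = 0.0324) and with trend and robust eBayes (adjusted p = 0.0142). PRC1 passed with a filter on dim probesets (adjusted p = 0.0286) and with trend and robust eBayes (adjusted p = 0.00898), and FOXM1 with a filter on dim probesets (adjusted p = 0.0472) and with trend and robust eBayes (adjusted p = 0.0231). The simvastatin changes of CDC25C and MAD2L1 (adjusted p = 0.0383 and 0.036) were lost without DMSO array 1 or 3, simvastatin array 1 or 3 or any 1 mevalonate array (adjusted p from 0.0522 to 0.118) and without any 1 DMSO array, any 1 simvastatin array or mevalonate array 3 (adjusted p from 0.0512 to 0.116), and that of FOXM1 without DMSO array 2 or 3 or simvastatin array 1 or 3 (adjusted p from 0.0543 to 0.0618).

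The HMMR promoter is shown because mitotic genes are known for CCAAT boxes and for the cell cycle homology region (CHR), bound by NF-Y and by the complex that holds mitotic genes silent early in the cycle. It covers chr5:163460410-163460631 on the plus strand (RefSeq, GRCh38.p14), the last 222 bases before the start, with matches on either strand in capitals. The box was searched with the letters CCAAT. The CHR was searched with TTTGAA. Its second form was TTCGAA, and neighbouring matches join into 1 run.
HMMR: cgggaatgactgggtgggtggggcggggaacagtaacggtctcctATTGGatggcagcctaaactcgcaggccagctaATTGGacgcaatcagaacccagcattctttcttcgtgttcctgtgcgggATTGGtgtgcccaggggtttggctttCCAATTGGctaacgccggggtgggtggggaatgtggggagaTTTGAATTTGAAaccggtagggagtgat
A CCAAT box was found in 32 of 37 mitotic genes with a promoter (86.5%) and in 39.8% of the 10749 measured genes, and a CHR in 20 of 37 (54.1%) and in 15% of the measured genes.

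DNA replication genes moved less, and in both directions. Of 21 measured 6 rose and 3 fell (42.9%, beside 11.0% of all genes), and without mevalonate array 1 5 genes changed. The largest rises were DBF4, the activator of the CDC7 kinase, by 0.28 ± 0.049 (8.61, 8.54 and 8.59 to 8.89, 8.87 and 8.83, DMSO 8.95, 8.84 and 8.81), and the helicase subunits MCM3 by 0.25 ± 0.039 and MCM2 by 0.23 ± 0.039. The genes that fell were CDT1, a licensing factor, by 0.25 ± 0.055, FEN1, a flap nuclease, by 0.22 ± 0.051, and GINS3, a helicase cofactor, by 0.22 ± 0.041; FEN1 and GINS3 ended below every DMSO array. The call of CDT1 (adjusted p = 0.0209) was lost without simvastatin array 1 or 2 or mevalonate array 1 or 3 (adjusted p from 0.0618 to 0.0751), and that of FEN1 (adjusted p = 0.0292) without DMSO array 1, simvastatin array 1 or 3 or mevalonate array 1 or 2 (adjusted p from 0.0505 to 0.0866). TYMS, thymidylate synthase, was lowered by simvastatin and was not called with mevalonate (9.28, 9.21 and 9.21 to 9.23, 9.29 and 9.26, DMSO 9.40, 9.44 and 9.45).

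Over the 21 genes the array means were 9.10 to 9.13 with mevalonate, 9.05 to 9.08 with simvastatin and 9.21 to 9.24 with DMSO, a return of 32.8% for a mean over members that went both ways. The 7 genes called in both comparisons each regained 70% to 128%, with a median of 72.6%. Of 19 G1 regulators measured 3 fell and 1 rose (21.1%, beside 11.0% of all genes). CCNE1, cyclin E1, read 7.82, 7.79 and 7.88 with DMSO, 8.48, 8.48 and 8.37 with simvastatin and 7.73, 7.80 and 7.61 with both, back among or below the DMSO arrays, a fall of 0.73 ± 0.060 (adjusted p = 0.000171). CCNE2, its relative, fell by 0.35 ± 0.043 to below every DMSO array (9.39, 9.37 and 9.40 beside 9.57, 9.56 and 9.51), and CDKN3, a phosphatase that acts on cyclin-dependent kinases, rose by 0.42 ± 0.051.

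**Figure D4:**
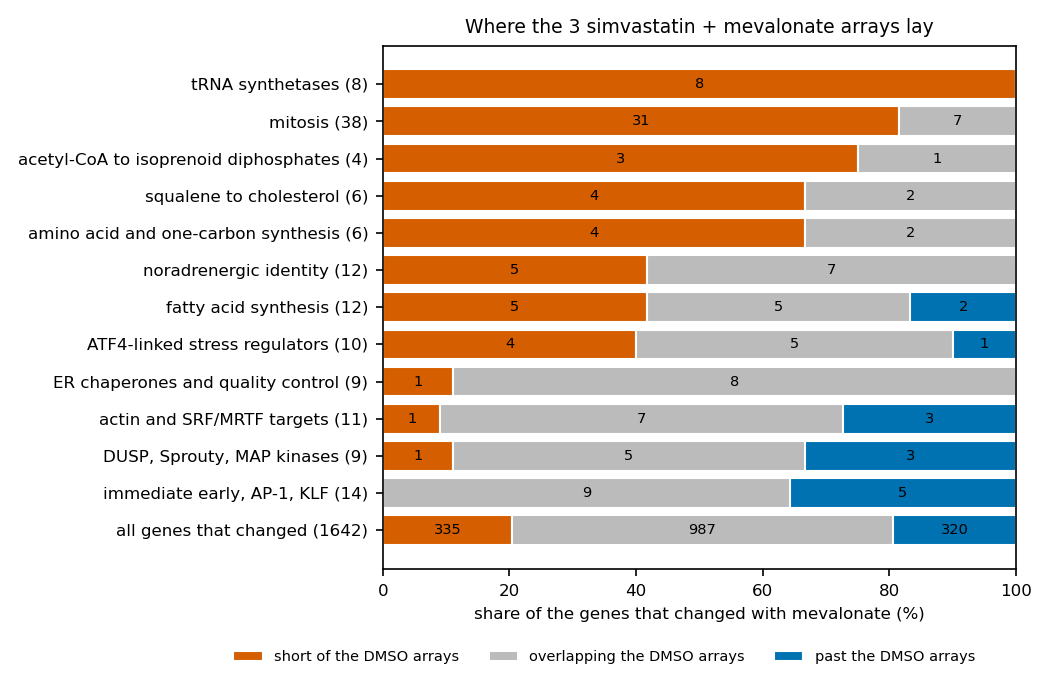
Share of the genes that changed with mevalonate (%), by whether their 3 mevalonate arrays all lay on the simvastatin side of the DMSO arrays (orange, short of DMSO), overlapped them (grey) or all lay on the far side (blue, past DMSO). Numbers in the bars are genes, and the number after each name is the genes of the group that changed. tRNA synthetases and mitotic genes are mostly short of DMSO, immediate early genes are at or past it, and the bottom bar gives all 1642 genes.

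Many genes of noradrenergic identity rose, with a return of 68.0% of the group's mean. Of 24 measured 11 rose and 1 fell (50%, beside 11.0% of all genes). Of these 12, 5 stayed short of DMSO and 7 overlapped it (41.7% and 58.3%, beside 20.4% and 60.1% of all genes that changed). DBH, which makes noradrenaline from dopamine, read 9.26, 9.29 and 9.26 with DMSO, 8.01, 8.11 and 8.06 with simvastatin and 9.21, 9.24 and 9.19 with both. It rose by 1.15 ± 0.041 (adjusted p = 1.26e-05), and its mevalonate arrays lay within 0.1 of the DMSO arrays but all below them. TH and DDC, the enzymes before DBH, rose by 0.30 ± 0.043 and 0.25 ± 0.041 and overlapped DMSO.

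Among the transcription factors, ISL1 rose by 0.53 ± 0.043 (9.55, 9.45 and 9.51 to 10.01, 10.02 and 10.08, short of 10.22, 10.26 and 10.22), GATA3 by 0.25 ± 0.043 (overlapping DMSO) and SATB1, a chromatin organiser, by 0.72 ± 0.048 (return 93.3%). PHOX2A and HAND2, which define the lineage, were not called between simvastatin and DMSO and differed with mevalonate by -0.029 and -0.012 (adjusted p = 0.778 and 0.888). ALK, the receptor kinase mutated in some neuroblastomas, rose by 0.59 ± 0.052, from 8.01, 7.97 and 7.84 to 8.52, 8.55 and 8.50, short of 8.72, 8.79 and 8.78. INSM1, a neuroendocrine repressor, was the member that fell, by 0.71 ± 0.070 (8.63, 8.47 and 8.43 to 7.90, 7.82 and 7.69, DMSO 7.95, 7.87 and 7.88).

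Chromogranins parted. CHGA, a core protein of secretory granules, read 10.02, 9.99 and 9.97 with DMSO, 9.28, 9.27 and 9.34 with simvastatin and 9.87, 9.99 and 9.88 with both and rose by 0.62 ± 0.046 (adjusted p = 0.000112). CHGB, its relative, read 9.18, 9.22 and 9.20 with DMSO, 8.84, 8.74 and 8.80 with simvastatin and 8.83, 8.99 and 8.83 with both. Its mevalonate arrays overlapped simvastatin and lay below all DMSO arrays (difference 0.087 ± 0.054, adjusted p = 0.383; remaining difference -0.32, 95% interval -0.44 to -0.19). EYA1 and INSM2, developmental regulators, likewise were not called, with differences of -0.049 ± 0.046 and 0.18 ± 0.055, although INSM2 was called without mevalonate array 1 (adjusted p = 0.046), with a filter on dim probesets (adjusted p = 0.039) and with trend and robust eBayes (adjusted p = 0.0211). The neuropeptide gene NPY was not called either (difference 0.15 ± 0.060, adjusted p = 0.161). VGF, a granule peptide precursor that simvastatin had raised, fell by 0.92 ± 0.063 (9.10, 8.99 and 9.14 to 8.21, 8.22 and 8.04, DMSO 8.01, 7.94 and 8.01).

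Synaptic vesicle genes moved both ways. Of 34 measured 4 rose and 6 fell (29.4%, beside 11.0% of all genes). SYT11, a synaptotagmin, read 10.85, 10.77 and 10.83 with DMSO, 11.47, 11.44 and 11.53 with simvastatin and 10.44, 10.42 and 10.44 with both. The mevalonate arrays were the lowest of all, and SYT11 fell by 1.05 ± 0.042 (adjusted p = 1.26e-05) to -0.38 relative to DMSO (adjusted p = 0.0222, lost without any 1 DMSO or mevalonate array). SYN1, which tethers vesicles, fell by 0.36 ± 0.052, while its relative SYN2 rose by 0.53 ± 0.051, from 9.17, 9.24 and 9.12 to 9.67, 9.67 and 9.76, above every DMSO array (9.52, 9.61 and 9.52). CADPS, which primes dense-core vesicles, rose by 0.74 ± 0.067, and RPH3A, a Rab effector, by 1.17 ± 0.14.

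Among genes of neurite growth, DCX, a microtubule protein of migrating neurons, rose by 0.36 ± 0.043 and returned 53.5% (6.76, 6.68 and 6.76 to 7.12, 7.09 and 7.06, DMSO 7.37, 7.39 and 7.45), MAPT, tau, fell by 0.47 ± 0.078, and STMN4, a stathmin, fell by 0.87 ± 0.083. Of 35 axon guidance genes measured 5 rose and 1 fell (17.1%, beside 11.0% of all genes; 3 changed without mevalonate array 3), a share not far from the overall one. SLIT3, a repulsive guidance cue, rose by 0.49 ± 0.046 into the DMSO range (10.82, 10.80 and 10.72 beside 10.73, 10.79 and 10.81), and NRP1, a semaphorin receptor, by 0.54 ± 0.062.

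Growth factors and receptors were mixed. Of 41 receptor kinase and ligand genes measured 7 rose and 6 fell (31.7%, beside 11.0% of all genes), and 8 changed without mevalonate array 3. HGF, the ligand of the MET receptor, read 7.47, 7.56 and 7.50 with DMSO, 8.46, 8.50 and 8.43 with simvastatin and 7.34, 7.13 and 7.12 with both. The mevalonate arrays lay below every DMSO array, and HGF fell by 1.27 ± 0.063 (adjusted p = 1.60e-05; remaining difference -0.32, adjusted p = 0.114). ANGPT2, an angiopoietin, rose by 0.88 ± 0.091 and KITLG, the KIT ligand, by 0.82 ± 0.12, while VEGFA, an angiogenic factor, fell by 0.70 ± 0.090 (7.64, 7.37 and 7.70 to 6.89, 6.97 and 6.76, DMSO 6.87, 6.93 and 6.92).

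Of 11 matrix genes measured 5 rose and 1 fell (54.5%, beside 11.0% of all genes). DCN and LUM, small matrix proteoglycans that also stood on the fibroblast marker list as its only measured members of 7, rose by 0.58 ± 0.059 and 0.69 ± 0.071 and stayed short of DMSO (8.31, 8.26 and 8.26 for LUM, beside 8.68, 8.73 and 8.80 with DMSO and 7.74, 7.58 and 7.46 with simvastatin). Their mean on each array ran from 7.19 to 7.35 with DMSO, 6.10 to 6.30 with simvastatin and 6.82 to 6.86 with both, and the part of other cell types in this was not tested. VCAN, a large proteoglycan, rose by 0.63 ± 0.049. HS3ST3A1, a heparan sulphate sulphotransferase, fell by 1.66 ± 0.084 to 6.19, 6.32 and 6.12, below every DMSO array (6.81, 6.80 and 6.80; simvastatin 7.94, 7.98 and 7.68), with a remaining difference of -0.59 (adjusted p = 0.0587).

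Of 12 ligands of natural killer cell receptors measured, a short list, 3 fell and 0 rose (25%, beside 11.0% of all genes). NCR3LG1, the ligand of NKp30, read 6.53, 6.62 and 6.63 with DMSO, 7.51, 7.49 and 7.41 with simvastatin and 6.69, 6.72 and 6.72 with both, just above the DMSO arrays, a fall of 0.76 ± 0.045 (adjusted p = 3.31e-05). PVR, the ligand of DNAM-1, fell by 0.45 ± 0.071 into the DMSO range. ULBP1, a ligand of NKG2D, fell by 1.12 ± 0.24 (adjusted p = 0.0176), a call lost without simvastatin array 2 or 3 or mevalonate array 1 or 3 (adjusted p from 0.0528 to 0.0668). It went from 6.08, 6.12 and 6.12 to 4.83, 5.43 and 4.70, beside 4.97, 4.15 and 4.33 with DMSO. Every DMSO array and mevalonate arrays 1 and 3 lay below the median of all probesets (5.19).

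Between simvastatin plus mevalonate and DMSO 11 genes were called, and a missed call does not show a return to DMSO. The count was 105 with the filter on dim probesets, 223 with trend and robust eBayes and 0 with only the compared groups in the fit. Among the 11, beside HMGCS1, ACAT2, MSMO1, ASNS and PSAT1, those on the side of simvastatin were STC1 and MEG3. STC1, a secreted glycoprotein, read 7.94, 7.97 and 7.94 with DMSO, 6.21, 6.43 and 6.35 with simvastatin and 7.42, 7.42 and 7.37 with both, a rise of 1.08 ± 0.057 (adjusted p = 1.97e-05) that left -0.55 relative to DMSO (adjusted p = 0.0183). MEG3, a long non-coding RNA, belongs there by its signs alone and did not respond in part: it read 8.49, 8.56 and 8.47 with DMSO, 8.23, 8.28 and 8.35 with simvastatin and 7.80, 7.64 and 7.95 with both, so mevalonate moved it further from DMSO, with a fall of 0.49 ± 0.077 (adjusted p = 0.00456).

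Beyond DMSO, with SYT11, lay DAAM1, a formin that assembles actin filaments, and TMOD1, which caps actin filaments. DAAM1 read 7.09, 7.04 and 7.02 with DMSO, 7.47, 7.35 and 7.39 with simvastatin and 6.65, 6.59 and 6.62 with both, and TMOD1 read 11.06, 11.03 and 11.04 with DMSO, 11.55, 11.51 and 11.55 with simvastatin and 10.65, 10.75 and 10.72 with both. In both the mevalonate arrays were below all others, with remaining differences of -0.43 and -0.33 (adjusted p = 0.0183 and 0.0387). The remaining member was a probeset at the microRNA gene MIR548H3, which does not measure a mature arm. The remaining differences of STC1, DAAM1 and SYT11 were lost without any 1 DMSO or mevalonate array, and that of TMOD1 without any 1 of the 9 arrays.

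Further genes stood among the 15 largest rises and the 15 largest falls, a ranking that leaves out microRNA, small RNA and uncharacterised symbols. The largest change of all lay outside it, in the probeset at MIR548H3 (difference -1.94). RGS13, a regulator of G protein signalling, rose the most within the ranking, by 1.68 ± 0.080 (4.41, 4.45 and 4.31 to 6.02, 6.09 and 6.09, DMSO 6.09, 6.28 and 6.41), from simvastatin values below the median of all probesets. IGFBP4, which binds insulin-like growth factors, rose by 0.93 ± 0.047, from 7.76, 7.80 and 7.74 to 8.69, 8.77 and 8.63, and passed the DMSO arrays (8.58, 8.53 and 8.53), as did CXCR4, a chemokine receptor (by 0.99 ± 0.067, an error understated by 3 identical values), and MFAP4, a matrix fibril protein (by 0.92 ± 0.062). NPY2R, a neuropeptide Y receptor, rose by 1.04 ± 0.086 into the DMSO range. EZR, ezrin, which links membranes to actin, fell by 1.09 ± 0.049 to below DMSO (9.78, 9.71 and 9.72 beside 9.97, 9.83 and 9.90), and FMN1, a formin, by 1.07 ± 0.045 (7.33, 7.27 and 7.21 beside 7.53, 7.49 and 7.52). LONRF2, a protein quality control ligase, fell by 1.09 ± 0.049 and stayed above DMSO in all arrays (9.26, 9.28 and 9.24 beside 9.14, 9.07 and 9.12).

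Of the uncalled genes, the one that simvastatin had moved the most, by -1.18, was a probeset at the microRNA gene MIR4427, with a return of 13.8%. Further ones were chosen among the 10 with the largest simvastatin differences outside microRNA and uncharacterised symbols. CCL2, a chemokine, read 7.42, 7.19 and 7.16 with DMSO, 6.86, 6.35 and 6.39 with simvastatin and 6.92, 6.93 and 6.79 with both, a difference of 0.35 ± 0.13 (adjusted p = 0.155) that passed without simvastatin array 1 (adjusted p = 0.0123), and a return of 48%. APAF1, which assembles the apoptosome, read 7.11, 7.25 and 7.29 with DMSO, 6.71, 6.58 and 6.57 with simvastatin and 6.94, 6.82 and 6.75 with both (difference 0.22 ± 0.071, adjusted p = 0.0976; return 36.7%), with every mevalonate array above every simvastatin array. AACSP1, a pseudogene of acetoacetyl-CoA synthetase, read 7.51, 7.69 and 7.69 with DMSO, 7.15, 6.92 and 6.82 with simvastatin and 7.17, 7.04 and 7.11 with both (adjusted p = 0.375; return 21.7%). In AACSP1 all mevalonate arrays lay below all DMSO arrays, as in APAF1 and CCL2.

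Further groups also held changed genes. Of 13 heat shock genes measured 4 fell and 1 rose (38.5%, beside 11.0% of all genes): HSPA9, the mitochondrial chaperone, fell by 0.25 ± 0.035, and HSPH1, a cytosolic co-chaperone, rose by 0.29 ± 0.042 (9.83, 9.80 and 9.81 to 10.12, 10.04 and 10.16, DMSO 10.10, 10.09 and 10.12). Of 14 measured genes of YAP and TEAD signalling 2 rose and 1 fell (21.4%, beside 11.0% of all genes), a short list in which 2 to 4 genes changed when 1 array was left out. Among them TEAD1, a transcription factor, rose by 0.39 ± 0.047 into the DMSO range. In the mesenchymal list 3 of 25 rose and 2 fell (20%, beside 11.0% of all genes), and 2 to 3 changed without simvastatin array 1 or 2 or mevalonate array 1 or 2. TWIST1, a transcription factor of that list, rose by 0.59 ± 0.046, from 8.57, 8.56 and 8.51 to 9.13, 9.10 and 9.19 beside 9.10, 9.03 and 8.995. Of 14 BCL2 family genes measured 2 rose and 2 fell (28.6%, beside 11.0% of all genes), and 2 changed without DMSO array 2 or 3, simvastatin array 2 or 3 or any 1 mevalonate array. Among them BMF, a death-promoting member, rose by 0.27 ± 0.042, short of DMSO (6.64, 6.64 and 6.60 beside 6.87, 6.85 and 6.94), a call lost with the mean of its probesets (adjusted p = 0.192).

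Several functions showed no called gene in limma. Of 45 cytosolic ribosomal protein genes, 13 interferon response genes and 7 Schwann cell and glial genes measured, 0 changed, and 1, 0 and 0 had an unadjusted p under 0.05. Over all genes 11.0% changed and 23.7% had such a p, so a count of 0 changed among 13 or 7 genes is near the overall share. For the ribosomal proteins the array means covered 8.73 to 8.76 with mevalonate and 8.72 to 8.76 with simvastatin. Of 15 respiratory chain subunits measured 2 rose (13.3%, near the 11.0% of all genes), COX7B by 0.19 ± 0.037 and COX8A by 0.25 ± 0.061, and the call of COX8A (adjusted p = 0.0336) was lost without simvastatin array 2 or 3 or any 1 mevalonate array (adjusted p from 0.0684 to 0.107).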

How the data were processed

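The arrays were Affymetrix whole-transcript arrays. The authors deposited 1 value per probeset and array on the log2 scale; GCRMA and HOMER are named in the submitters' processing notes without a role or version, and no source used here gives the genome build of the probes. Some deposited values are identical between arrays: 57.4% of the genes had at least 1 identical pair among 9 arrays. Of 53617 probesets 16098 carried 1 gene symbol and 37519 none; the probeset with the highest mean stood for each of 14884 genes, with no filter on dim values. Array medians lay between 5.17 and 5.21, and no further normalization was applied. limma 3.58.1 (R 4.3.3) fitted the means of the 3 groups over all 9 arrays with lmFit and eBayes (6 residual degrees of freedom), and p-values were adjusted by Benjamini-Hochberg over all genes, with a threshold of 0.05. Position relative to DMSO was read from the array values, and the percentage returned is the mevalonate difference divided by the simvastatin difference. The number of arrays limits precision, and the median within-group SD was 0.0927. Replicate numbers did not pair the arrays (correlations of same-numbered deviations between -0.0806 and 0.0505). Genes named came from the 15 largest rises and falls without overlap, the largest changes per list, the classes still called against DMSO and the uncalled class, and HMGCS1 and KLF2, set beforehand; others were chosen after their values were seen. The comparison and gene lists were chosen with earlier results of these data known. The fit was tested on simulated data. Promoters (RefSeq, GRCh38.p14) were searched for 10749 of the genes, and those on chr8 were left out of the search. Alternatives were quantile normalization, the mean of probesets, a dim filter, only the compared groups, trend with robust eBayes, the replicate block, all probesets and leaving out each array. Some listed genes are not reported here.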

Additional observations from a re-analysis of the deposited data

How the results depend on the processing

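Counts of changed genes under the alternatives follow; the cause of each shift was not tested. For simvastatin plus mevalonate against simvastatin, quantile normalization gave 1716 genes and the mean of a gene's probesets 1578, beside 1642. Testing all probesets gave 922 named genes (428 rose, 494 fell), 1 against DMSO and 1177 for simvastatin against DMSO. The classes then held 1 partial, 0 beyond, 921 with no remaining call and 444 uncalled. In this setting all 53617 probesets entered both the fit and the adjustment. Against DMSO, the filter on dim probesets gave 105 genes (55 partial, 27 beyond) and trend with robust eBayes 223 (112 partial, 46 beyond). With only the compared groups in the fit there were 0 calls against DMSO in limma (1671 at an unadjusted p under 0.05), 0 partial, 0 beyond and 457 uncalled. With the replicate number as a block there were also 0 calls against DMSO (1505 unadjusted), 0 partial and 0 beyond, and 1230 genes changed with mevalonate, 574 upwards and 656 downwards; the numbers do not pair the arrays, and the block moved no other count by over 1.5 times. Leaving out 1 array at a time gave 1121 to 1482 changed genes, 516 to 712 rises and 588 to 777 falls. It gave 0 to 12 calls against DMSO, 1461 to 1744 for simvastatin against DMSO, 0 to 8 partial, 0 to 3 beyond, 1118 to 1482 with no remaining call and 407 to 799 uncalled. Quantile normalization moved group means by at most 0.02. Calls with mevalonate of the genes checked singly moved both ways. With only the compared groups 7 were lost (CDT1, CNN2, FDPS, FEN1, MARS1, NARS1 and VLDLR). The replicate block lost 9, among them COX7B, COX8A and SHMT1. All probesets lost 17, the mean of probesets 4 and quantile normalization 3 (CNN2, COX8A and VLDLR). The dim filter and trend with robust eBayes gained 9 each.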

Other observations

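Of the 37519 probesets without a gene symbol 960 (2.56%) also changed with mevalonate, 500 upwards and 460 downwards, and they are not named here. Of 1098 genes whose symbol starts with MIR 32 rose and 46 fell, beside 5.31% and 5.72% of all genes. Whether each of these is itself a microRNA gene was not checked, and mature arms were not measured. The study used 1 cell line, 1 dose of each compound and 1 time, without an array of mevalonate alone, so the effect of mevalonate without simvastatin is not analysed here. Identical deposited values, which lower a gene's measured spread, were not limited to dim genes: 68.1% of genes with a mean under the lower quartile and 44% of those above the upper quartile had at least 1 identical pair among the 9 arrays, and 7.77% and 3.14% had 3 identical values in a group.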
